A study of Mus musculus with 6 samples.

Results

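Bhlhe40 encodes a basic helix-loop-helix repressor that is tied to the circadian clock, and its RNA is described here together with its close relative Bhlhe41 and with 8 clock genes, Per1, Per2, Per3, Cry1, Nr1d1, Nr1d2, Dbp and Arntl. These 10 genes were taken by symbol from the 26110 rows of the RNA-seq table, and each is listed once. They were chosen from the difference between CX3CR1- and CX3CR1+ cells in these libraries, so their values in that comparison are a description and carry no test. RNA was sequenced from MHCIIhi cells of the small bowel muscularis externa (ME), the muscle coat of the gut, which were flow-sorted by the chemokine receptor CX3CR1 into 3 CX3CR1- and 3 CX3CR1+ libraries. All mice were naive and untreated and carried 1 CX3CR1 allele replaced by GFP (genotype CX3CR1+/GFP), a reporter that also leaves the cells with a single working Cx3cr1 allele. The mice were female and on a C57BL/6 background, their age is not given in the sources used here, and tissue from 6 mice was pooled for each population, without a statement of whether each library had its own pool. P-values therefore measure the spread between these libraries, which may be technical. The time of day at which tissue was taken is not given in the sources used here either.

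In the molecular clock, BMAL1 (the product of Arntl) pairs with CLOCK or NPAS2, binds E-box sequences and switches on the genes of its own repressors. PER and CRY proteins then block the pair, and BHLHE40 and BHLHE41 compete with it for E-boxes, while REV-ERB proteins, encoded by Nr1d1 and Nr1d2, silence Arntl through ROR response elements. Macrophages and other gut immune cells run such a clock, so RNA levels of most of these genes vary over the day, and Bhlhe40 also has roles outside the clock, among them repression of Il10 in immune cells.

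Promoter sequence shows which of these control elements the members carry close to their start. Of the 10 members, 8 matched the RefSeq promoter table for GRCm38.p6, with 10 windows of 250 bases before to 50 bases after a start, and Bhlhe40 and Per2 are not shown. The perfect E-box, CACGTG, stood in the windows of 3 members (Bhlhe41, Per1 and Cry1) and in 7.15% of all 32817 windows. The stretches around it are shown because this is the element that BMAL1 pairs and both BHLHE proteins bind, with the E-box in capitals and up to 30 bases on each side.
Bhlhe41, chr6:145865559-145865603, minus strand: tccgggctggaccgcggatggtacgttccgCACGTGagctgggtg
Per1, chr11:69098753-69098818, plus strand: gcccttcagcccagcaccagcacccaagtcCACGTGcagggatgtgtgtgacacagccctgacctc
Cry1, chr10:85185079-85185144, minus strand: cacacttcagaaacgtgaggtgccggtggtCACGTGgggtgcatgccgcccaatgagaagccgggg
Counted from the start of the RefSeq transcript, the Bhlhe41 E-box began 153 bases before, the Per1 E-box 166 bases before and the Cry1 E-box 60 bases before. These starts differ from the GENCODE gene spans given below, so that the Per1 stretch lies inside its span and the Bhlhe41 and Cry1 stretches outside theirs.

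Other clock elements were found in 1 or 2 members each, or in none. The E-prime box CACGTT, whose other strand reads AACGTG, stood in 4.69% of all windows, in Nr1d1 and in the Cry1 stretch above, where it lies 79 bases before the start and shares no base with the E-box. The D-box TTATGTAA, bound by DBP, TEF, HLF and their repressor NFIL3, stood in 0.935% of all windows and occurred at 2 places in Per3. The ROR response element, the half-site GGTCA behind an A and a T at fixed places, which ROR and REV-ERB proteins bind, stood in 2.46% of all windows and occurred in the second Arntl window, after the start. The cAMP response element TGACGTCA stood in 1.79% of all windows and in none of the 10 member windows. All motifs were searched on both strands, and a palindrome was counted once per position. The 3 stretches below show these elements in capitals.
Nr1d1, chr11:98775378-98775435, minus strand: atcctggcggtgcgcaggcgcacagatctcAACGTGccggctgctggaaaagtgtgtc
Per3, chr4:151044786-151044900, minus strand: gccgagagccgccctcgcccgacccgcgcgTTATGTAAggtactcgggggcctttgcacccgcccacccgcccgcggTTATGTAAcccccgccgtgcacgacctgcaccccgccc
Arntl, chr7:113207528-113207557, plus strand: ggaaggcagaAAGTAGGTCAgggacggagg
These matches describe the letters only, since no binding was measured in these cells.

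The table holds values that the authors normalized between libraries with DESeq2, without a unit of length. The libraries held approximately 5346379 to 17616748 reads, and 3 reads corresponded to normalized values of 1.39 to 5.36. Genes encoded in the mitochondria took 47.5 to 54.9% of the summed values in CX3CR1- libraries and 18.1 to 21.2% in CX3CR1+ libraries. Cx3cr1 itself, the gene of the sort, read 23.2, 18.9 and 28.5 in the CX3CR1- libraries and 371, 380 and 347 in the CX3CR1+ libraries, in the direction of the labels. The labels call the cells dendritic cells and the paper calls them macrophages. For CX3CR1- cells the paper cites IBA-1 staining, and flow cytometry in which most were CD11b positive and few carried CD11c or CD103. It also reports that RNA of some monocyte-macrophage lineage markers was higher in them and that of Csf1r lower. All 6 macrophage markers (Csf1r, Adgre1, Mertk, Fcgr1, C1qa and C1qb) were lower in every CX3CR1- library, with sums of 4120 to 5065 against 24164 to 26945, and all 6 conventional dendritic cell markers were higher, with sums of 2746 to 3346 against 179 to 245. The CX3CR1- libraries also held RNA of other cells, with sums of 16220 to 28322 against 16.03 to 42.4 over 7 enterocyte markers, 4117 to 12168 against 181 to 316 over 6 fibroblast markers, and 1259 to 3303 against 22.2 to 30.2 over 3 B and plasma cell markers, and every gene of these 3 lists was higher in all 3 CX3CR1- libraries. Apoa4, Alpi and Krt20 of the enterocyte list were at or under 3 reads in all CX3CR1+ libraries. Sums of smooth muscle markers overlapped (752 to 2131 against 1627 to 2247), as did those of T cell markers (85.9 to 166 against 61.3 to 127), whereas enteric glia and neuron markers summed to 92.6 to 288 against 60.4 to 68.1 and 3 listed eosinophil markers to 21.5 to 80.3 against 3.19 to 6.86. These differences in composition move with the comparison below, and their part in the members' values was not tested. In bulk RNA, fewer cells of a type and less RNA per cell cannot be told apart.

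Bhlhe40 and Bhlhe41 stood in opposite order in the sorted populations, while the 8 clock genes differed less. Across all genes, a gene was called when its absolute log2 fold change was at least 1 and its adjusted p from limma at most 0.05, and 12.2% of the 17812 tested genes were called higher and 8.15% lower in CX3CR1- cells. All 10 members passed the filter for testing, an average of 10 or more across the libraries. By the same thresholds 1 of them lay on the higher side (Bhlhe40), 1 on the lower side (Bhlhe41), and 8 on neither, and nothing is read from these counts because the comparison chose the genes. Every CX3CR1- library lay above every CX3CR1+ library for 1 member (Bhlhe40) and for 20.3% of all tested genes. Every CX3CR1- library lay below for 2 members (Bhlhe41 and Per1) and for 19.8% of all tested genes. The libraries overlapped for the other 7. The median log2 fold change, CX3CR1- against CX3CR1+, was -0.56 over the members and -0.0035 over all tested genes.

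**Figure D1:**
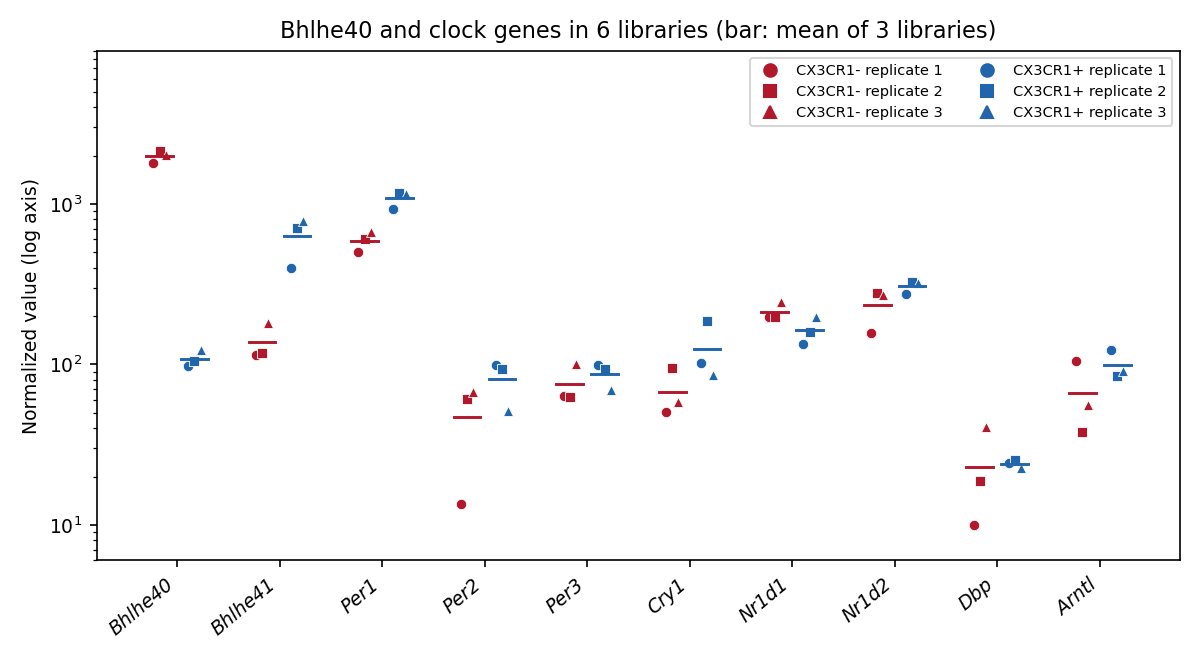
Normalized value of the 10 members in each library, on a log axis, with CX3CR1- libraries in red, CX3CR1+ libraries in blue, a marker shape for each replicate and a bar at the mean of 3 libraries. Bhlhe40 stood at 1803 to 2136 in the CX3CR1- libraries and at 97.4 to 123 in the CX3CR1+ libraries, Bhlhe41 and Per1 were lower in all CX3CR1- libraries, and the other 7 genes overlapped between the populations.

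Bhlhe40 (chr6:108660629-108666925 in GRCm38, plus strand) had normalized values of 1803, 2136 and 2006 in CX3CR1- replicates 1 to 3 and of 97.4, 106 and 123 in CX3CR1+ replicates 1 to 3. All CX3CR1- libraries lay far above all CX3CR1+ libraries, and within a population the highest library exceeded the lowest by only 1.19-fold and 1.27-fold. The means were 1982 ± 168 and 109 ± 13.2 (SD, n = 3 each), an 18.2-fold difference, with a log2 fold change of 4.18 (SE 0.19). On the log2 scale the SD within CX3CR1- cells was 0.12, and 6.61% of tested genes had a smaller one. Within CX3CR1+ cells it was 0.17, and 24.6% had a smaller one. These shares were taken over genes of all levels. An antisense transcript, 0610040F04Rik, overlaps an exon of Bhlhe40, but only 1.97% of the 31-base words of Bhlhe40 transcripts occur in any other gene.

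Bhlhe41 (chr6:145858243-145865558, minus strand), whose product binds the same E-boxes as BHLHE40 and can pair with it, ran the other way. It read 114, 118 and 180 in the CX3CR1- libraries and 399, 709 and 786 in the CX3CR1+ libraries. The populations did not overlap, and the mean of 631 ± 205 in CX3CR1+ cells was 4.60-fold that of 137 ± 37.2 in CX3CR1- cells (SD, n = 3 each), with a log2 fold change of -2.17 (SE 0.30). Of its 31-base words, 17.5% are shared with Gm43909, an antisense gene that read 3.13, 28.6 and 0 in CX3CR1- cells and 17.6, 31.2 and 17.0 in CX3CR1+ cells. The reads were unstranded, so a part of these 2 genes cannot be told apart.

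Because both genes are read in the same library, their ratio does not depend on how libraries were scaled. Bhlhe40 over Bhlhe41 was 15.8, 18.2 and 11.1 in the CX3CR1- libraries and 0.244, 0.149 and 0.157 in the CX3CR1+ libraries. Bhlhe40 thus carried the larger value of the pair in every CX3CR1- library and Bhlhe41 in every CX3CR1+ library. These are ratios of normalized values without length, and the longest transcripts are 3113 bases for Bhlhe40 and 6133 bases for Bhlhe41 in GENCODE release M21. Per kilobase of those lengths, the means were 637 ± 54.0 for Bhlhe40 and 22.4 ± 6.07 for Bhlhe41 in CX3CR1- cells, and 34.9 ± 4.24 and 103 ± 33.4 in CX3CR1+ cells (SD, n = 3 each).

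**Figure D2:**
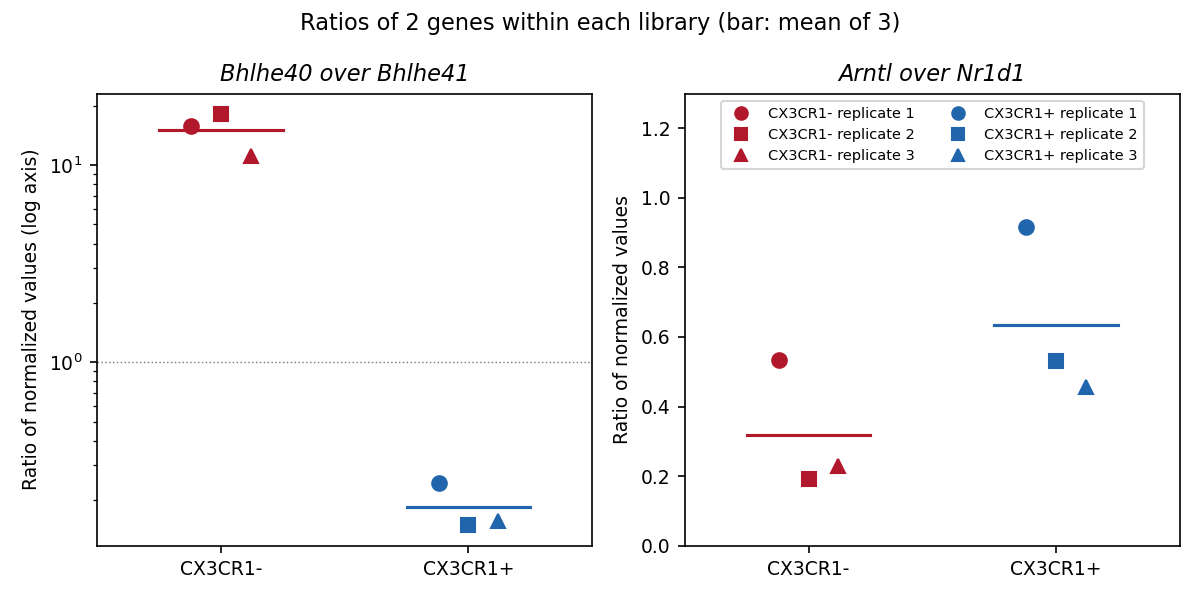
Ratio of the normalized values of a pair of genes within each library, for Bhlhe40 over Bhlhe41 on a log axis (left) and Arntl over Nr1d1 on a linear axis from 0 (right), with bars at the mean of 3 libraries. Bhlhe40 over Bhlhe41 lay above 11 in CX3CR1- cells and below 0.25 in CX3CR1+ cells, whereas Arntl over Nr1d1 overlapped, with replicate 1 highest in each population.

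Arntl (chr7:113207465-113314126, plus strand) encodes the activator BMAL1, on which the clock loop depends. Its values were 105, 37.9 and 55.9 in the CX3CR1- libraries and 124, 85.1 and 90.3 in the CX3CR1+ libraries. CX3CR1- replicate 1 lay within the CX3CR1+ range and the other 2 below it, so that the populations overlapped. The log2 fold change was -0.68 (SE 0.39), and the lowest value rested on about 21.2 reads. Arntl was present in all 6 libraries.

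The Period genes encode proteins that feed back on the BMAL1 pair. Per1 (chr11:69095217-69109960, plus strand), which also responds quickly to stimuli and glucocorticoids, had the highest values of the 3, at 502, 601 and 670 in CX3CR1- cells and 934, 1168 and 1155 in CX3CR1+ cells. All CX3CR1+ libraries lay above all CX3CR1- libraries, by 1.84-fold between the means of 1086 ± 131 and 591 ± 84.4 (SD, n = 3 each). The log2 fold change was -0.88 (SE 0.18). Under quantile normalization it was -0.58.

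Per2 (chr1:91415982-91459324, minus strand), a core repressor whose RNA follows the clock closely in many tissues, read 13.5, 60.7 and 67.3 in CX3CR1- cells and 99.3, 94.1 and 51.1 in CX3CR1+ cells. CX3CR1- replicate 1 stood apart at about 13.0 reads, and the other 2 CX3CR1- libraries lay within the CX3CR1+ range. The log2 fold change was -1.01 (SE 0.57), and -0.29 without that library. Per3 (chr4:151003652-151044665, minus strand), which is less central to the loop, read 63.8, 62.5 and 101 against 98.9, 93.0 and 69.0. The highest of these 6 values belonged to a CX3CR1- library, and the log2 fold change was -0.22 (SE 0.31).

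Cry1 (chr10:85131700-85185064, minus strand) encodes the cryptochrome that holds the BMAL1 pair inactive late in the cycle. It read 50.1, 94.4 and 58.5 in CX3CR1- cells and 103, 186 and 86.3 in CX3CR1+ cells. Only CX3CR1- replicate 2 and CX3CR1+ replicate 3 crossed. The log2 fold change was -0.85 (SE 0.37), with means of 67.7 ± 23.5 and 125 ± 53.2 (SD, n = 3 each).

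Nr1d1 (chr11:98767932-98775333, minus strand) was the only one of the 8 clock genes with a positive log2 fold change, 0.38 (SE 0.24). It read 198, 197 and 244 in CX3CR1- cells and 135, 160 and 197 in CX3CR1+ cells. The lowest CX3CR1- library, 197.3, and the highest CX3CR1+ library, 197.4, met. Its 3' end overlaps Thra on the other strand, with 7.85% of its 31-base words shared, and Thra read 136, 123 and 145 against 90.5, 101 and 88.0. Nr1d2 (chr14:18204054-18239127, minus strand), which encodes the second REV-ERB repressor, read 157, 277 and 271 against 276, 326 and 323, with a log2 fold change of -0.43 (SE 0.26). Its populations overlapped only where CX3CR1- replicate 2 (276.7) met CX3CR1+ replicate 1 (276.4).

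Arntl and Nr1d1 peak at opposite times of day in clock-bearing tissues, and Arntl over Nr1d1 was therefore computed in each library. The ratio was 0.533, 0.192 and 0.229 in CX3CR1- cells and 0.916, 0.532 and 0.457 in CX3CR1+ cells. The lowest CX3CR1+ ratio lay below the highest CX3CR1- ratio, and replicate 1 was the highest of each population.

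Dbp (chr7:45705088-45710203, plus strand) is a direct output of the BMAL1 pair and encodes a D-box activator. It read 9.95, 18.7 and 40.6 in CX3CR1- cells and 24.3, 25.3 and 22.6 in CX3CR1+ cells. The 3 CX3CR1+ libraries lay close together inside the wide CX3CR1- range. The log2 fold change of -0.27 (SE 0.53) took both signs over the alternatives, from -0.77 to 0.19, and the lowest value rested on about 9.53 reads. Sphk2 overlaps Dbp on the other strand, shares 16.9% of its 31-base words and read 300, 160 and 187 against 166, 190 and 153.

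The members differed in how much they varied within a population. On the log2 scale, the SD over 3 libraries was 1.25 for Per2, 0.97 for Dbp and 0.73 for Arntl in CX3CR1- cells, where the median of all tested genes was 0.47. In CX3CR1+ cells, with a median of 0.30 over all tested genes, it was 0.57 for Cry1, 0.53 for Bhlhe41, 0.52 for Per2 and 0.079 for Dbp. Bhlhe40 and Per1 varied less than the median gene in both populations, at 0.12 and 0.21 in CX3CR1- cells and 0.17 and 0.18 in CX3CR1+ cells. The same held for Nr1d1 (0.17 and 0.27), Per3 (0.39 and 0.27) and Nr1d2 (0.46 and 0.13), in CX3CR1- and CX3CR1+ cells.

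**Figure D3:**
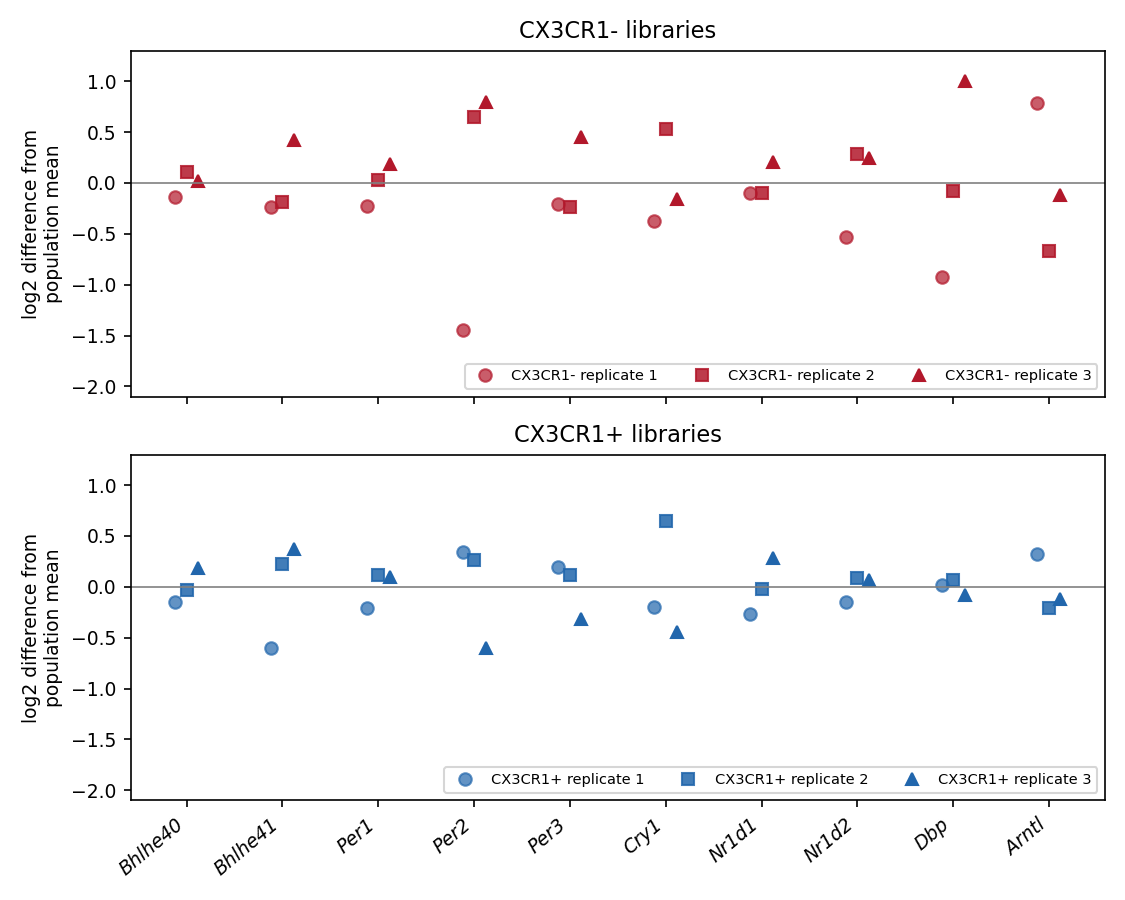
Difference of each member's log2(value + 1) in a library from the mean of its own population, with CX3CR1- libraries above and CX3CR1+ libraries below. In both panels replicate 1 (circles) was highest for Arntl and lowest for Bhlhe40, Bhlhe41, Per1 and Nr1d2, and the spread was widest for Per2 and Dbp in CX3CR1- cells.

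Replicate 1 had the highest Arntl value in both populations and the lowest Bhlhe40, Bhlhe41, Per1 and Nr1d2 values in both. Other members went against this, and Per2 was lowest in replicate 1 of CX3CR1- cells and highest in replicate 1 of CX3CR1+ cells. Over all 10 members, the library with the highest value had the same replicate number in both populations for 5 genes, and so did the library with the lowest value. Among tested genes without ties the same held for 35.7% at the high end and 36.0% at the low end, and nothing particular to the members is read from 10 genes. The sample titles carry library numbers, and replicate 1 of CX3CR1- and of CX3CR1+ cells have adjacent numbers, as do replicates 2 and 3, but no source used here says that adjacent libraries shared mice or a day. Replicate 1 was also the most deeply sequenced library of each population, at about 11927368 and 17616748 reads. The part of harvest time or depth in this pattern was not tested.

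The order of the members by level was given per kilobase of the longest transcript, since the table itself is not scaled by length. In CX3CR1- cells Bhlhe40 led with a mean of 637 per kilobase, followed by Per1 at 127, Nr1d1 at 78.3 and Nr1d2 at 50.3, and the libraries of none of these neighbours overlapped. Bhlhe41 (22.4), Cry1 (22.4), Arntl (16.6), Per3 (12.6), Dbp (12.6) and Per2 (8.09) followed, and each overlapped its neighbour. In CX3CR1+ cells Per1 led with 232 per kilobase and did not overlap Bhlhe41 at 103, which was followed by Nr1d2 at 66.1, Nr1d1 at 60.3, Cry1 at 41.3 and Bhlhe40 at 34.9, each overlapping its neighbour. Arntl stood alone at 24.9, and Per3 (14.5), Per2 (14.0) and Dbp (13.1) overlapped at the lower end. Bhlhe40 was thus first in CX3CR1- cells and sixth in CX3CR1+ cells, while the other 9 moved less.

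The clock loop has further genes that the choice of members did not name, and these were tested with limma over all 17812 genes. Of 8 such genes, 2 rose and 1 fell in CX3CR1- against CX3CR1+ cells, and 5 were not called, with a median log2 fold change of -0.22. Among all tested genes 12.2% were called higher and 8.15% lower. The lists here and below are short, so nothing about a pathway is read from their counts. Npas2, which can take the place of CLOCK beside BMAL1, read 67.8, 89.4 and 101 in CX3CR1- cells and 5.55, 2.46 and 7.08 in CX3CR1+ cells. All CX3CR1- libraries were higher, with a log2 fold change of 3.92 (SE 0.48, adjusted p = 2.37e-04 in limma), although the CX3CR1+ values rested on 12, 3 and about 5 reads. Npas2 passed the filter through its CX3CR1- values, and with no filter on low values the adjusted p was 2.13e-04 in limma. Clock itself, the usual partner, read 550, 409 and 403 against 556, 603 and 541 and was not called (log2 fold change -0.33, SE 0.19, adjusted p = 0.25 in limma). Npas2 over Clock was accordingly 0.123, 0.219 and 0.2502 in CX3CR1- libraries and 0.00998, 0.00408 and 0.0131 in CX3CR1+ libraries.

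Cry2, the second cryptochrome, read 179, 77.3 and 154 in CX3CR1- cells and 37.4, 33.3 and 26.1 in CX3CR1+ cells. It rose without overlap, by a log2 fold change of 1.98 (SE 0.37, adjusted p = 0.00325 in limma). Cry2 over Cry1 was 3.58, 0.819 and 2.64 in CX3CR1- cells and 0.365, 0.179 and 0.302 in CX3CR1+ cells. Cry2 exceeded Cry1 in CX3CR1- replicates 1 and 3 and in no other library. Ciart, a repressor of the BMAL1 pair, read 17.6, 8.40 and 20.1 against 38.6, 69.0 and 69.7, and its lowest value rested on about 4.70 reads. It fell in CX3CR1- cells by 1.91 on the log2 scale (SE 0.46, adjusted p = 0.0122 in limma), but without CX3CR1+ replicate 2 or 3 the adjusted p was 0.0693 or 0.0661. Gm9176 shares 20.8% of the 31-base words of Ciart, so a part of its reads may belong there.

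The remaining loop genes were not called. Arntl2, the BMAL1 relative, had a log2 fold change of -0.54 (SE 0.35), Rora, an activator at ROR elements, -0.69 (SE 0.40), its relative Rorb 0.40 (SE 0.34), and the D-box repressor Nfil3 -0.10 (SE 0.33), with adjusted p of 0.30, 0.26, 0.44 and 0.86 in limma. Without CX3CR1- replicate 3, Rora reached -1.14 with an adjusted p of 0.0367 in limma.

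**Figure D4:**
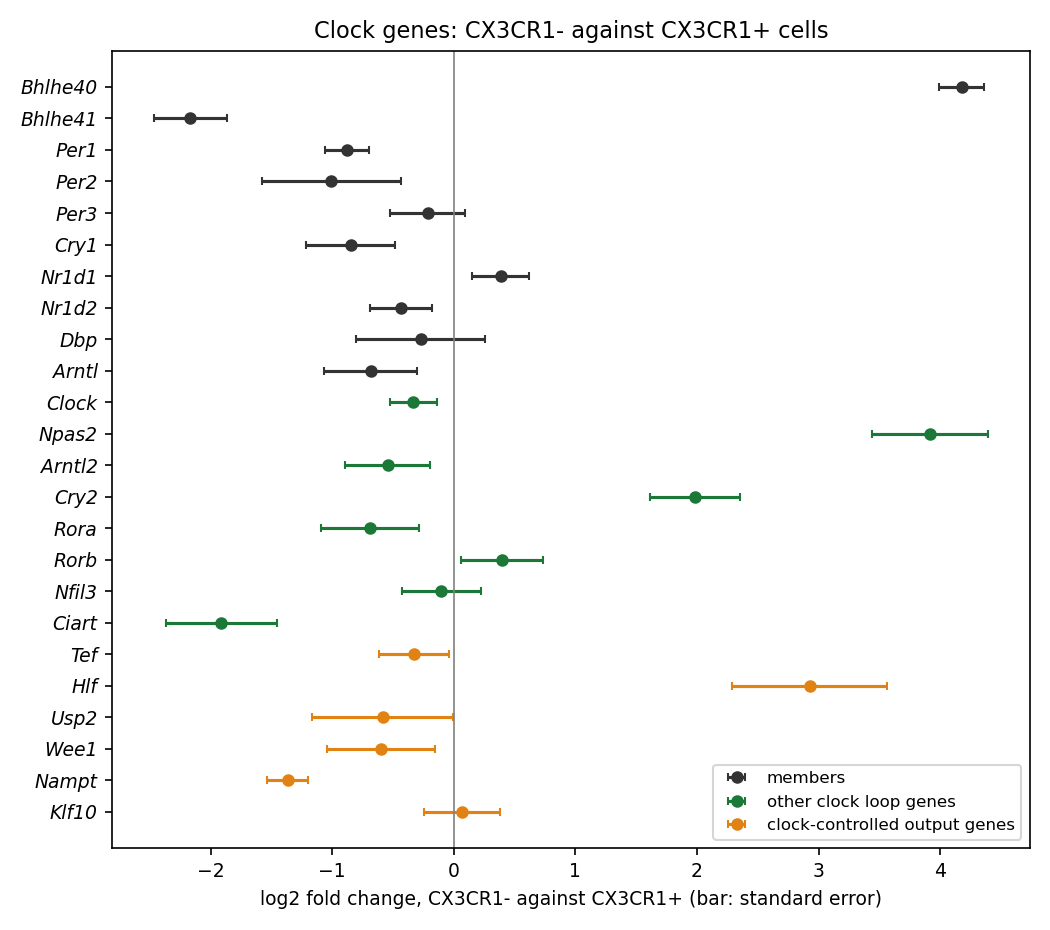
Log2 fold change of CX3CR1- against CX3CR1+ cells with its standard error from limma, for the 10 members (black), 8 other clock loop genes (green) and 6 clock-controlled output genes (orange). Bhlhe40, Npas2, Hlf and Cry2 lay at 1.98 or above, Bhlhe41, Ciart and Nampt at -1.36 or below, and the others between -1.01 and 0.40.

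Among clock-controlled output genes, 1 of 6 rose, 1 fell and 4 were not called, with a median log2 fold change of -0.45. Hlf, a D-box activator of the same family as Dbp, read 30.1, 99.9 and 95.6 in CX3CR1- cells and 4.45, 5.38 and 18.8 in CX3CR1+ cells, the latter on about 9.63, 6.56 and 13.2 reads. It rose by a log2 fold change of 2.93 (SE 0.64, adjusted p = 0.00754 in limma), whereas Tef, the other member of that family, had -0.32 (SE 0.29, adjusted p = 0.47 in limma). Hlf also passed the filter through its CX3CR1- values, and with no filter its adjusted p was 0.00793 in limma. Nampt, which makes the NAD+ precursor NMN and is driven by the BMAL1 pair, read 434, 529 and 439 against 1108, 1263 and 1234. It fell by 1.36 on the log2 scale (SE 0.17, adjusted p = 2.79e-04 in limma). The deubiquitinase gene Usp2 (log2 fold change -0.58, SE 0.58), the cell cycle kinase gene Wee1 (-0.60, SE 0.44) and Klf10 (0.06, SE 0.31) had adjusted p of 0.52, 0.38 and 0.91 in limma. Usp2 was lowest in CX3CR1- replicate 2, at 17.5 on about 9.79 reads, and without that library its log2 fold change was 0.22.

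Of 13 genes for enzymes and corepressors that act on clock proteins, none rose and 1 fell, and the median log2 fold change was -0.12. Fbxw11, which encodes a ubiquitin ligase subunit that marks PER proteins for degradation, read 228, 291 and 311 in CX3CR1- cells and 714, 652 and 545 in CX3CR1+ cells. Fbxw11 thus fell by 1.20 on the log2 scale (SE 0.21, adjusted p = 0.00195 in limma). The largest of the others was that of Hdac3, which encodes the deacetylase that works with REV-ERB proteins, at 0.57 (SE 0.38, adjusted p = 0.32 in limma).

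Bhlhe40 and Per1 also answer to signals outside the clock, and lists of such genes were tested in the same fit. Again, 12.2% of all tested genes were called higher and 8.15% lower. Of 5 glucocorticoid-responsive genes, 1 rose and none fell, and the median log2 fold change was -0.45. That gene, Klf9, a repressor that is itself under clock control, read 385, 165 and 278 in CX3CR1- cells and 148, 96.0 and 76.5 in CX3CR1+ cells, with a log2 fold change of 1.33 (SE 0.36, adjusted p = 0.0208 in limma). The call did not hold without CX3CR1- replicate 1 or 3 or CX3CR1+ replicate 2 or 3, where the adjusted p was 0.0752, 0.0595, 0.0720 and 0.0902, nor without an intensity trend, where it was 0.0667. Zbtb16 had a log2 fold change of -1.12 (SE 0.53, adjusted p = 0.16 in limma).

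Of 10 immediate-early genes, which sense stimuli and also tissue digestion, none rose and 2 fell. Atf3, a stress-induced transcription factor, read 1340, 1205 and 1877 in CX3CR1- cells and 5570, 6288 and 5796 in CX3CR1+ cells, and its log2 fold change was -2.02 (SE 0.18, adjusted p = 3.37e-05 in limma). Junb, an AP-1 subunit, fell by 1.03 on the log2 scale (SE 0.15, adjusted p = 7.07e-04 in limma), a size that dropped below the threshold of 1 under 4 alternatives, with log2 fold changes of -0.55 under quantile normalization, -0.86 after rescaling to the non-mitochondrial total, -0.92 without CX3CR1- replicate 3 and -0.98 without CX3CR1+ replicate 2. The median log2 fold change of the list was -0.40. Every CX3CR1- library lay below every CX3CR1+ library for 4 of the 10 genes, against 19.8% of all tested genes. These were Atf3, Junb, Dusp1 (log2 fold change -0.83, adjusted p = 4.27e-04 in limma) and Egr1 (-0.47, adjusted p = 0.14 in limma). Every CX3CR1- library lay above for 2, Fosb and Ier2, against 20.3% of all tested genes. No other gene of the list had a positive log2 fold change. Dusp1, Egr1, Fosb and Ier2 are named after their values were seen. Fosb, another AP-1 subunit, read 5960, 5010 and 6232 in CX3CR1- cells and 2988, 3750 and 4102 in CX3CR1+ cells, with a log2 fold change of 0.67 (SE 0.16, adjusted p = 0.0124 in limma), short of the fold threshold. Under quantile normalization Fosb was called higher, at 1.23 with an adjusted p of 5.92e-04 in limma. Ier2 was also higher without overlap, at 0.75 (SE 0.27, adjusted p = 0.0664 in limma). Per1 was lower in every CX3CR1- library, like Atf3 and Junb and unlike Fosb and Ier2. The tissue was digested for 40 min at 37°C before the sort, and the part of digestion in these values was not tested.

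Of 8 hypoxia-responsive genes 7 passed the filter, 1 was called higher and none lower, and the median log2 fold change was 0.89. Ndrg1 read 229, 222 and 362 in CX3CR1- cells and 95.9, 63.7 and 59.7 in CX3CR1+ cells, with a log2 fold change of 1.87 (SE 0.30, adjusted p = 0.00120 in limma). Adm, which encodes adrenomedullin, had 1.32 (SE 0.56, adjusted p = 0.12 in limma). The rest of the list went both ways and is named after its values were seen. Slc2a1 was lower in every CX3CR1- library, at -0.79 (SE 0.21, adjusted p = 0.0194 in limma), short of the fold threshold. Vegfa and Bnip3 had -0.28 and -0.39, Egln3 and Car9 had 1.01 and 0.89, and none of these was called.

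BHLHE40 is known to repress Il10 and Maf in mouse immune cells. Both of these genes were called lower in CX3CR1- cells, and their libraries did not overlap. Among all tested genes 8.15% were called lower and 19.8% were lower without overlap. Nothing about BHLHE40 is read from 2 genes. Il10, the anti-inflammatory cytokine, read 25.0, 68.0 and 27.9 in CX3CR1- cells and 560, 1287 and 1110 in CX3CR1+ cells, and its log2 fold change was -4.64 (SE 0.42, adjusted p = 3.67e-05 in limma). Maf, a transcription factor that drives Il10, read 864, 755 and 736 against 3665, 3101 and 3578, a log2 fold change of -2.13 (SE 0.15, adjusted p = 9.82e-06 in limma). Both genes are also expressed by macrophages, whose 6 markers were lower in every CX3CR1- library as well. Neither the part of that difference nor the part of Bhlhe40 in the Il10 and Maf values was tested.

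**Figure D5:**
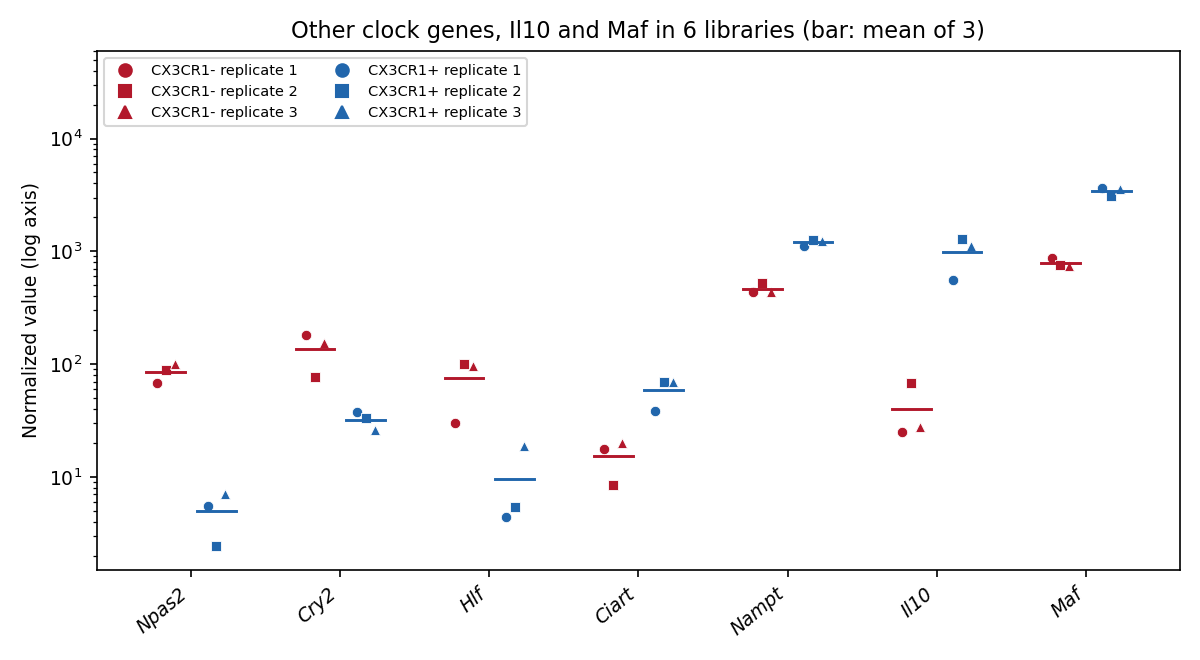
Normalized value of 5 other clock genes and of Il10 and Maf in each library, on a log axis, with CX3CR1- libraries in red, CX3CR1+ libraries in blue and bars at the mean of 3 libraries. Npas2, Cry2 and Hlf were higher and Ciart, Nampt, Il10 and Maf lower in all CX3CR1- libraries.

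The genes whose pattern over the 6 libraries was closest to that of Bhlhe40 were found by the Euclidean distance between log2 profiles centred on their own mean, as a description. Adam8, which encodes a membrane metalloprotease of leukocytes, was nearest at 0.35 and read 546, 731 and 513 in CX3CR1- cells and 28.7, 32.4 and 31.9 in CX3CR1+ cells. Gm21847 (0.41), the serotonin transporter gene Slc6a4 (0.56), Aldh1a2 (0.57), which makes retinoic acid, and Tnfrsf13c (0.58), the receptor for the B cell factor BAFF, followed. Gm21847 and Slc6a4 were listed at 0 in all 3 CX3CR1+ libraries, so they passed the filter only through their CX3CR1- values. These were 16.6, 24.5 and 19.3 for Gm21847 and 16.8, 22.8 and 26.2 for Slc6a4. The distance of both genes from Bhlhe40 therefore depends on the pseudocount of 1. Of the 31-base words of Gm21847, 75.7% occur in other genes. With a pseudocount of 10, Adam8 was the only one of the 5 that stayed on the list.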

How the data were processed

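The authors pseudoaligned 75 bp single reads to the mouse transcriptome (mm10, GENCODE release M16) with Kallisto, took the estimates into R through tximport, added up the transcripts of each gene and scaled the libraries with DESeq2. The deposited table thus gives normalized signal. Its values are not counts, since only 41.0 to 42.7% were whole multiples of the smallest step of their library (tolerance 0.001 reads), so no count test was run. That step gave approximate reads, and intervals were not computed.

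Libraries were grouped by the population in their titles and numbered in accession order. The whole table was fitted with limma 3.58.1 in R 4.3.3 (intensity trend, two-sided, Benjamini-Hochberg over 17812 genes) on log2(value + 1), where the pseudocount of 1 understates changes of low genes. A mean of at least 10 was required. With 3 libraries against 3, an exact permutation test cannot fall below 0.1 and was not used. The members, the lists and the tests were chosen with earlier results of these data known, and some genes of the lists are not reported here. Named were all members, all clock loop and output genes, the called genes and the 2 largest changes of the other lists, and the 5 genes nearest to Bhlhe40. Further immediate-early and hypoxia-responsive genes were named after their values were seen. Positions, lengths and shared 31-base words came from GENCODE release M21. Plots were drawn with matplotlib 3.10.9. The alternatives were other pseudocounts, filters, scalings, variance priors and weights, a block, and each library left out.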

Additional observations from a re-analysis of the deposited data

How the results depend on the processing

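All 10 members kept their sign under every alternative except Dbp, and the members called were 2 throughout. At a mean of at least 50, 1232 genes were called higher, and 1 other clock loop gene and 1 output gene were called, since fewer genes were tested. Of the glucocorticoid list, 0 genes were called without an intensity trend and 0 to 1 when single libraries were left out. Of the immediate-early list, 1 gene was called after rescaling to the non-mitochondrial total, and 1 to 2 when single libraries were left out. With a pseudocount of 10, 1 of the 5 genes most like Bhlhe40 remained. The cause of these changes was not tested, other than the number of genes tested. Quantile normalization moved the median of all genes to -0.15 and rescaling to the non-mitochondrial total moved it to 0.17 on the log2 scale. Bhlhe40 then stood at 4.35 under both. Leaving out single libraries gave 1724 to 2263 genes called higher and 1011 to 1606 called lower. No source pairs the libraries. Deviations of libraries with adjacent numbers correlated across genes at 0.10, 0.038 and 0.014. CX3CR1- replicates 1 and 2 correlated best with the library of adjacent number, and CX3CR1- replicate 3 with CX3CR1+ replicate 2, at 0.040. Correlations this small cannot tell whether adjacent libraries were pairs, and the main fit used no pairs. A replicate block from adjacent numbers called 2165 genes higher and 1445 lower, and 2 hypoxia-responsive genes. Depth limits Dbp, Per2, Npas2, Ciart, Hlf, Usp2 and Wee1, whose lowest libraries held few reads.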
